A study of Macaca mulatta with 30 samples.

Results

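This account covers 64 genes for the structural proteins of the extracellular matrix: the collagens, laminins, nidogen, fibulins, fibrillins, elastin, fibronectin, tenascin, the small proteoglycans and versican, and some of the enzymes and enhancers that mature collagen. They were chosen by a fixed set of symbols, which holds the collagen, laminin, fibulin, fibrillin and nidogen families, LOX with its LOXL paralogs, PCOLCE and PCOLCE2, and single genes of other families, such as TNC for the tenascins and DCN, LUM and BGN for the small proteoglycans. Every gene of that set that a probeset with 1 gene symbol measured was taken, which gave 125 probesets for 64 of the 14133 genes so measured on an array of 52865 probesets. The rule reads symbols and no signal, but the set was drawn up with earlier results of these data known. Where a gene had several probesets, the one with the highest mean over the 30 arrays stood for it.

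RNA of rhesus macaques was measured with the rhesus macaque GeneChip, an oligonucleotide array, to learn how alike the results of different laboratories were. The 5 RNA sources were cerebral cortex (extracted at Yerkes), an immortalized fibroblast line (Nebraska), and pancreas, testis and thymus (all Oregon); the sources name no treatment. Oregon, Nebraska and Yerkes each received 2 aliquots of every RNA, labeled them and hybridized them, which gave 30 arrays, 10 per center and 6 per tissue. Since all 6 arrays of a tissue came from 1 RNA, a p-value below describes labeling and hybridization and says nothing of the spread between animals. The fibroblasts are 1 cell line grown in culture, whereas the tissues are mixtures of cells, and in RNA from a mixture fewer cells of a type and less RNA per cell cannot be told apart.

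Collagens are trimers of chains wound into a triple helix. Fibrillar collagens form the cables of connective tissue, the fibril-associated collagens decorate them, and collagen IV forms the sheet of the basement membrane together with laminins, which are trimers of an alpha, a beta and a gamma chain, and with nidogen, which bridges both. Fibrillins and fibulins carry elastin in elastic fibers, and lysyl oxidases crosslink collagen and elastin. Fibroblasts are the textbook source of the interstitial matrix, brain has little of it outside its vessels and meninges, and in testis the seminiferous tubules are wrapped in a basement membrane and a layer of peritubular myoid cells.

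Signals are on a log2 scale, on which a difference of 1 is a doubling. They averaged 6.33 over all probesets at Oregon, 6.36 at Nebraska and 6.91 at Yerkes, so center was a term of the limma model fitted to all probesets. The fixed lists of tissue markers were each highest in their own tissue for cerebral cortex (6 of 6 measured genes), pancreas (6 of 6), testis (6 of 6) and thymus (5 of 5). These lists were drawn up with earlier results of these data known. The study itself had picked PRSS2, TKTL1 and CD8A from these arrays, so the ranks are no independent check. Of 3 fibroblast markers measured, TAGLN and S100A4 were highest in the fibroblasts and THY1, which neurons also carry, was highest in cerebral cortex. The control probesets for the 3' end of GAPDH exceeded those for its 5' end by 1.81 in fibroblast, 1.58 in pancreas, 0.82 in cerebral cortex, 0.69 in testis and 0.47 in thymus, a larger gap in fibroblast and pancreas, and the part of this in the differences below was not tested.

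More of the matrix genes were higher in fibroblast than in any other source. Higher in 1 tissue here means above all 4 remaining ones, with adjusted p-values from limma under 0.05. In this sense 30 of the 64 were higher in fibroblast (46.9%, against 16.7% of all 14133 genes), 13 in testis (20.3%, against 9.71%), 8 in pancreas (12.5%, against 21.2%), 2 in thymus (3.12%, against 12.6%) and 1 in cerebral cortex (1.56%, against 13.3%), and 10 were called in none. When the difference from the next tissue also had to reach 1, 20 genes remained in fibroblast (31.2%, against 4.63%) and 6 in testis (9.38%, against 1.97%). None reached it in cerebral cortex (5.63% of all genes), pancreas (1.98%) or thymus (3.33%), where limma called the 1, 8 and 2 genes just given at any size. On each of the 6 arrays of its highest tissue, every one of these 26 genes was above all other tissues' arrays from the same center.

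**Figure D1:**
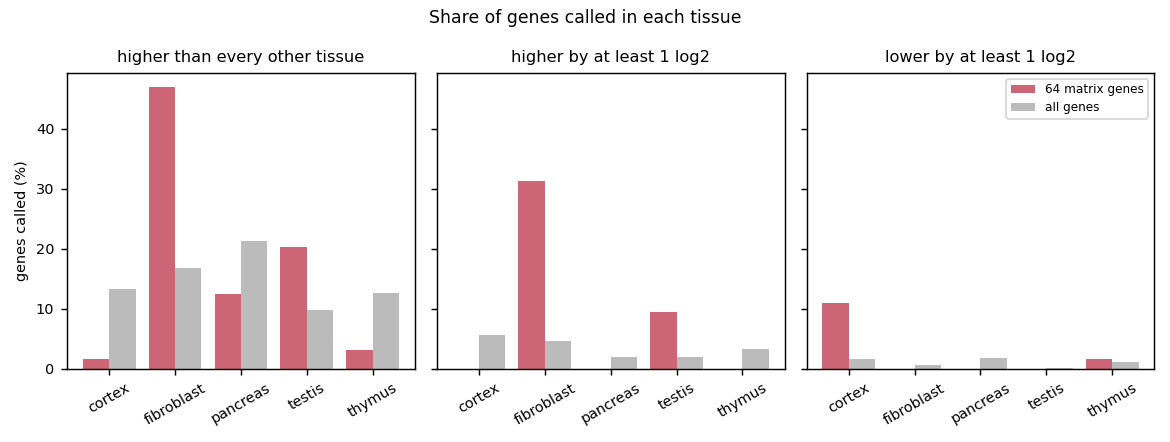
Share of genes called (y axis, percent) in each tissue (x axis) for the 64 matrix genes and for all 14133 genes, under 3 call rules. The matrix genes stand above all genes in fibroblast and testis in the panels of higher calls and in cerebral cortex in the panel of lower calls, where 10.9% of them lie (7 genes, or 3 with the mean of each gene's probesets).

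In the opposite direction, 7 matrix genes were at least 1 lower in cerebral cortex than in any other source (10.9%, against 1.51% of all genes), namely COL1A1, COL1A2, COL6A1, COL6A3, DCN, FBN1 and LUM. With the mean of each gene's probesets in place of the brightest, 3 genes were so. Thymus had 1 such gene, EFEMP1 (1.56%, against 1.12%), and fibroblast, pancreas and testis had none (0.517%, 1.84% and 0.0425% of all genes). Taken over all 64 genes, the median difference of a tissue from the mean of the other 4 was 0.72 in fibroblast, 0.33 in testis, -0.05 in pancreas, -0.81 in thymus and -0.82 in cerebral cortex. For all 14133 genes these medians were -0.01, -0.10, -0.05, -0.13 and -0.09. Against the medians of all genes, those of the matrix genes were higher in fibroblast and testis, lower in cerebral cortex and thymus, and the same in pancreas.

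A common order ran through many of the genes. In 22 of 64 (34.4%, against 3.23% of all genes) fibroblast exceeded testis and testis exceeded each of the other 3 tissues, all at an adjusted p under 0.05 in limma. Both this way of counting and the full order counted next were chosen after the values were seen. No other full order was counted, so the shares of all genes beside them are no test. By the means alone, 15 genes (23.4%, against 1.17% of all genes) stood in the full order fibroblast, testis, pancreas, thymus, cerebral cortex: BGN, COL1A1, COL1A2, COL6A1, COL6A2, COL6A3, COL7A1, DCN, FBN1, LAMA4, LAMB1, LAMC1, LOX, LOXL2 and PCOLCE. The 15 include both chains of collagen I, all 3 measured chains of collagen VI and the laminin chains alpha 4, beta 1 and gamma 1.

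**Figure D2:**
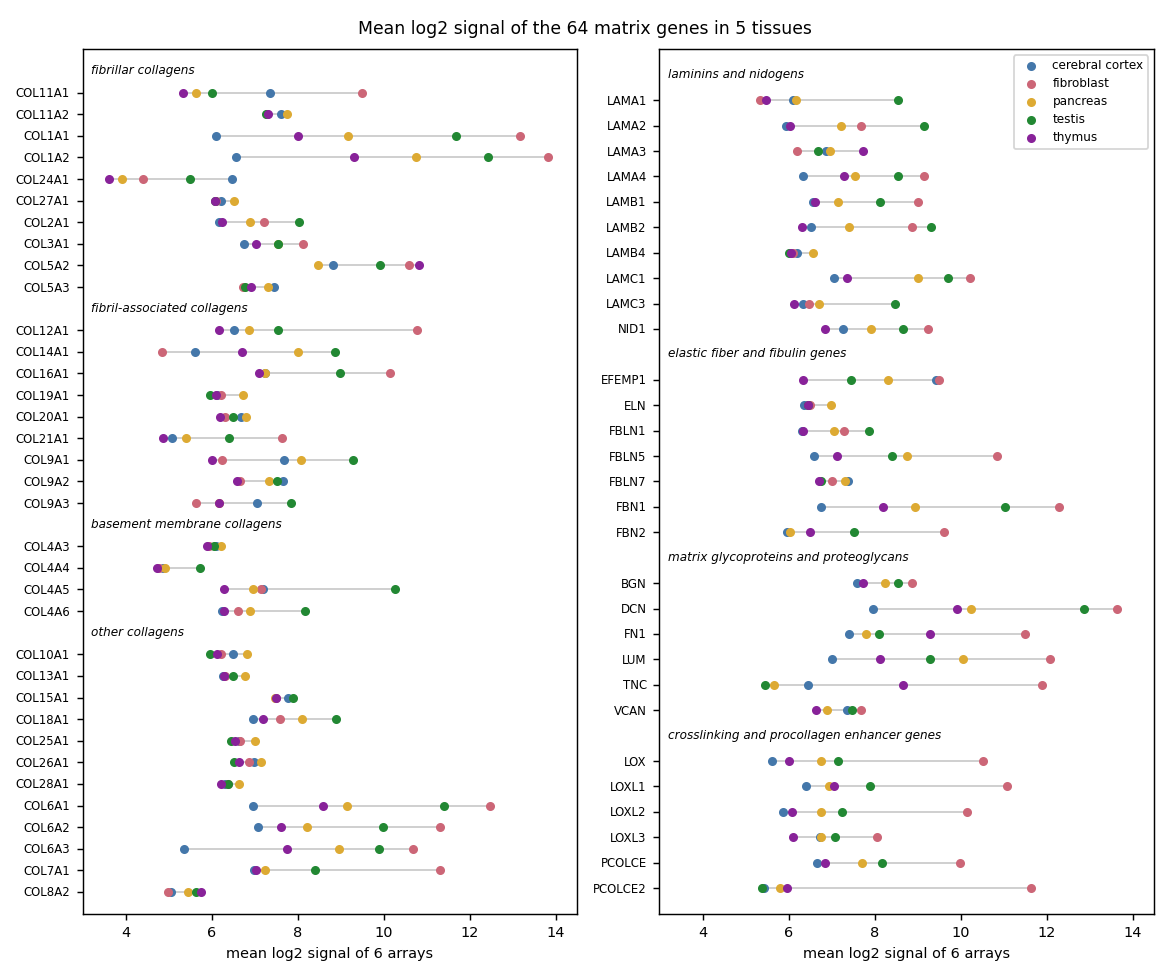
Mean log2 signal of 6 arrays (x axis) for each of the 64 genes (y axis), grouped by role and colored by tissue. Fibroblast is the rightmost point for 31 genes and testis for 14, and cerebral cortex is the leftmost for 28. These positions were not counted over all genes, and levels are not comparable between genes.

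Among the 10 fibrillar collagen genes, 4 were higher in fibroblast (COL1A1, COL1A2, COL3A1 and COL11A1) and 1 each in cerebral cortex, pancreas, testis and thymus. Of all genes, 16.7% were so in fibroblast, 13.3% in cerebral cortex, 21.2% in pancreas, 9.71% in testis and 12.6% in thymus. The classes here and below hold 4 to 12 genes, so their counts are few. COL1A2, the second chain of collagen I, had lowest, median and highest signals of 13.55, 13.67 and 14.25 in fibroblast, 12.02, 12.34 and 12.83 in testis, 10.34, 10.77 and 11.13 in pancreas, 9.05, 9.22 and 9.59 in thymus and 6.32, 6.48 and 6.85 in cerebral cortex. All 5 tissues were separate, without overlap between any neighbours in that order. The difference of fibroblast from testis was 1.38 (SE 0.06), adjusted p = 7.72e-19, and cerebral cortex lay 2.74 (SE 0.06) below thymus. For COL1A1, the partner chain, fibroblast gave 12.95, 13.25 and 13.34, testis 11.42, 11.54 and 12.31, pancreas 8.55, 9.12 and 9.86, thymus 7.71, 8.08 and 8.23 and cerebral cortex 5.79, 5.99 and 6.62. Both chains thus had the same order of tissues, and COL1A1 too had no overlap between neighbouring tissues. Its difference of fibroblast from testis was 1.50 (SE 0.15), adjusted p = 1.96e-10.

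COL11A1, a minor fibril chain best known from cartilage, departed from that order. Fibroblast gave 9.22, 9.35 and 9.89 and cerebral cortex came next with 7.09, 7.27 and 7.71, followed by testis (5.73 to 6.39), pancreas (5.22 to 6.11) and thymus (4.91 to 5.94). Fibroblast and cortex were each separate from all others, while the last 3 overlapped. The lead of fibroblast over cortex was 2.14 (SE 0.07), adjusted p = 1.25e-22. COL24A1, a fibrillar collagen of developing bone, was the 1 matrix gene called higher in cerebral cortex. There it ran from 6.34 to 6.93, in testis from 5.09 to 5.73 and in the other tissues no higher than 4.85. Its lead over testis, 0.99 (SE 0.12), adjusted p = 1.54e-08, lay just under 1, and only 5 of its 30 arrays were above the array's median signal. COL2A1, the cartilage collagen, was higher in testis than in fibroblast by 0.81 (SE 0.09), adjusted p = 2.16e-09. COL5A3 and COL11A2 were called in no tissue, though cerebral cortex exceeded fibroblast by 0.72 in COL5A3, adjusted p = 1.08e-09, and by 0.34 in COL11A2, adjusted p = 4.78e-05. Pancreas and cortex did not differ in limma for either gene. Their means were 7.30 and 7.45 for COL5A3 and 7.75 and 7.62 for COL11A2, where pancreas exceeded fibroblast by 0.46. COL27A1 was higher in pancreas by 0.29.

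COL3A1, the fibrillar collagen of vessels and soft organs, is a neighbour of COL5A2 in the reference annotation, and its lead in fibroblast depended on the center. Its fibroblast aliquots read 8.65 and 8.72 at Oregon, 8.40 and 8.17 at Yerkes, and 7.46 and 7.37 at Nebraska. Pancreas, the next tissue over all centers, read 7.45 and 7.42, then 7.59 and 7.83, then 7.43 and 7.56. Testis was all but level with pancreas, with means of 7.54 and 7.55, and its arrays ran from 6.92 to 8.04. The fibroblast arrays were above pancreas at Oregon and Yerkes, by 1.25 and 0.57, whereas at Nebraska they fell between or below its arrays, with a difference of -0.08. The pooled difference was 0.58 (SE 0.19), adjusted p = 0.00788, and the interaction of tissue and center passed limma's F test at an adjusted p of 1.73e-06. After quantile normalization of all 30 arrays the pooled difference was 0.21 and did not pass, adjusted p = 0.302.

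Of the 4 genes classed as basement membrane collagens, COL4A3 to COL4A6, 3 were higher in testis and none in fibroblast (9.71% and 16.7% of all genes were). COL4A1 and COL4A2 were not among the 64 genes, so these counts say nothing of them. COL4A5, whose chain is best known from the filter of the kidney, gave 10.01, 10.31 and 10.49 in testis against 6.96, 7.06 and 7.59 in cerebral cortex, 6.95, 7.05 and 7.53 in fibroblast, 6.70, 6.76 and 7.47 in pancreas and 5.92, 6.30 and 6.65 in thymus. Testis stood alone, and cortex, fibroblast and pancreas overlapped. The lead over cortex was 3.08 (SE 0.08), adjusted p = 3.76e-26, the largest in testis among the probesets used for the 64 genes. COL4A6, which lies beside COL4A5 on the X chromosome with 1 gene between them in the reference annotation, gave 7.85, 8.21 and 8.43 in testis and 6.51, 6.67 and 7.53 in pancreas, again without overlap, and a lead of 1.28 (SE 0.09), adjusted p = 2.19e-14. COL4A4 was higher in testis than in pancreas by 0.82 (SE 0.08), adjusted p = 1.79e-10, although none of its 30 arrays reached the array's median signal. Its neighbour COL4A3 did not pass, with means between 5.89 and 6.21.

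Of the 10 laminin and nidogen genes, 4 were higher in fibroblast and 4 in testis (LAMA4, LAMB1, LAMC1 and NID1 against LAMA1, LAMA2, LAMB2 and LAMC3). The shares of all genes were 16.7% and 9.71%. The median difference from the other tissues was 1.13 in testis and 1.03 in fibroblast. LAMA1, the alpha chain of the first laminin described, gave 8.37, 8.45 and 8.91 in testis, and its highest array elsewhere was 6.64 in pancreas. This left a gap on every array, and the lead over pancreas was 2.37 (SE 0.07), adjusted p = 2.26e-23. LAMA2, the alpha chain of muscle laminin, gave 8.85, 9.07 and 9.50 in testis and 7.39, 7.57 and 8.08 in fibroblast, a lead of 1.46 (SE 0.06), adjusted p = 1.40e-19. LAMA4, the chain of vessel and mesenchymal laminins, had the reverse order, with 8.86, 9.06 and 9.56 in fibroblast and 8.22, 8.56 and 8.81 in testis, a lead of 0.60 (SE 0.08) for fibroblast, adjusted p = 3.99e-08. The ranges of LAMA4 did not overlap, yet their ends lay close together. LAMA3, the alpha chain of epithelial laminin, was higher in thymus by 0.75 (SE 0.06) over pancreas, adjusted p = 9.13e-13.

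The beta and gamma chains were found on both sides too. LAMB1, beta 1, was higher in fibroblast (8.18, 9.20 and 9.60) than in testis (7.73, 8.16 and 8.51) by 0.87 (SE 0.11), adjusted p = 2.12e-08, and the ranges overlapped. LAMC1, gamma 1, the gamma chain of most laminins, was higher in fibroblast by 0.53 (SE 0.07), adjusted p = 4.87e-08. LAMB2, beta 2, known from synapses and kidney, leaned to testis by 0.45 (SE 0.09), adjusted p = 2.80e-05. LAMC3, gamma 3, gave 8.03, 8.57 and 8.81 in testis and 6.38, 6.51 and 7.21 in pancreas, a lead of 1.76 (SE 0.09) without overlap, adjusted p = 4.99e-18. In LAMC1 and LAMB2, as in LAMA4, fibroblast and testis were the leading pair, well above cerebral cortex. LAMB4, the neighbour of LAMB1, was higher in pancreas by 0.38 only.

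NID1, which links laminin to collagen IV, differed most between centers. Its fibroblast aliquots both read 9.99 at Oregon, 9.64 and 9.51 at Yerkes, and 8.13 and 8.22 at Nebraska, while testis stayed between 8.46 and 8.96 at all 3 centers. Fibroblast was above testis at Oregon by 1.53 and at Yerkes by 0.63, and below it at Nebraska by a difference of -0.38. The pooled lead of 0.59 (SE 0.18), adjusted p = 0.00513, therefore did not hold within Nebraska, and the interaction had an adjusted p of 1.97e-09. These values are of 1 of the 2 probesets of NID1. The other was also highest in fibroblast, with a pooled lead of at least 1. At Nebraska the fibroblast arrays also had the largest 3' minus 5' difference of the controls, 2.52 for GAPDH and 2.62 for ACTB, against 1.40 and 1.42 at Oregon and 1.50 and 1.97 at Yerkes. The part of that difference in the signals of NID1 and COL3A1 was not tested.

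**Figure D3:**
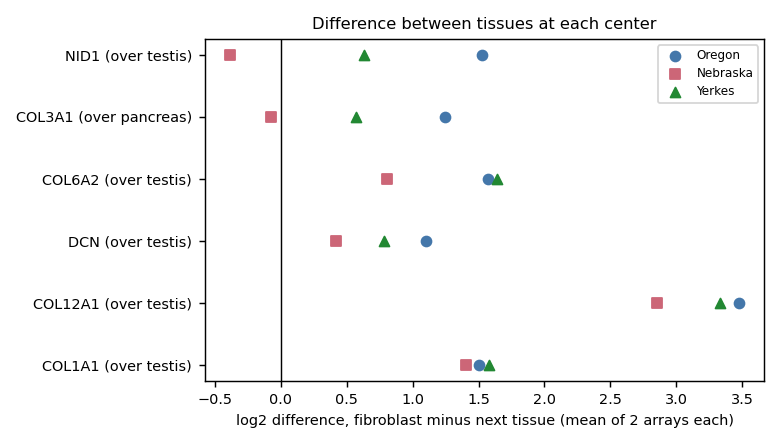
Log2 difference of fibroblast from the next tissue (x axis) for 6 genes (y axis) at each center, from 2 arrays per tissue. NID1 spreads from -0.38 at Nebraska to 1.53 at Oregon and COL3A1 from -0.08 to 1.25, whereas the values of COL1A1 lie between 1.41 and 1.58. The interaction of tissue and center over all tissues passed limma's F test for COL1A1 too, adjusted p = 0.00577.

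Over all 64 genes the interaction of tissue and center passed for 23 (35.9%, against 33.4% of all genes), a share close to that of all genes. In 21 of the 23 the lead of the highest tissue still varied by less than 1 between centers. Only COL3A1 and NID1 exceeded this.

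Of the 9 fibril-associated collagen genes, 3 were higher in fibroblast (COL12A1, COL16A1 and COL21A1) and 3 in testis (COL9A1, COL9A3 and COL14A1). The shares of all genes were 16.7% and 9.71%. COL12A1, a collagen of tendon and ligament fibrils, gave 10.21, 10.99 and 11.10 in fibroblast and 7.34, 7.57 and 7.73 in testis, and at most 7.23 in the other tissues. Fibroblast stood far apart, by 3.22 (SE 0.08), adjusted p = 2.46e-25. COL16A1 and COL21A1 led in fibroblast by 1.15 (SE 0.06) and 1.23 (SE 0.12), each with testis next. COL9A1, a cartilage collagen, gave 9.07, 9.36 and 9.41 in testis, 7.58, 8.28 and 8.39 in pancreas and 7.35, 7.82 and 7.90 in cerebral cortex. Testis did not overlap with the others and led by 1.21 (SE 0.11), adjusted p = 2.96e-11, while pancreas and cortex overlapped. COL14A1, a collagen on the surface of fibrils, was 1 of 6 matrix genes with their lowest mean in fibroblast, with 4.29, 4.79 and 5.37 there against 8.53, 8.90 and 9.03 in testis, which led pancreas by 0.85 (SE 0.11), adjusted p = 2.27e-08. COL19A1 was higher in pancreas by 0.50, and COL9A2 and COL20A1 were called in no tissue.

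Collagen VI forms beaded filaments around cells, and its 3 measured chains had the same order of tissues. COL6A1 gave 12.27, 12.42 and 12.73 in fibroblast, 11.20, 11.37 and 11.57 in testis and 6.60, 6.89 and 7.37 in cerebral cortex. COL6A2, its neighbour in the annotation, gave 11.02, 11.16 and 11.77, 9.58, 9.92 and 10.69 and 6.67, 6.91 and 7.68 in the same tissues, and COL6A3 gave 10.37, 10.65 and 10.98, 9.61, 9.87 and 10.17 and 4.96, 5.34 and 5.72. In all 3 genes fibroblast lay above testis and testis above cortex with no overlap. The leads of fibroblast over testis were 1.09 (SE 0.10), 1.34 (SE 0.14) and 0.79 (SE 0.07), and cortex lay below thymus, the next lowest, by 1.63 (SE 0.10), 0.54 (SE 0.14) and 2.40 (SE 0.07). COL7A1, which anchors the epidermis to the dermis, led in fibroblast with 11.01, 11.16 and 11.83 against 7.94, 8.34 and 8.80 in testis, a difference of 2.91 (SE 0.07), adjusted p = 5.49e-27. Of the remaining collagens of this group, COL10A1, COL13A1, COL25A1 and COL28A1 were higher in pancreas by 0.33, 0.28, 0.35 and 0.24, COL18A1, a vessel wall collagen, was higher in testis by 0.78 (SE 0.15), and COL8A2, COL15A1 and COL26A1 were called in none.

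**Figure D4:**
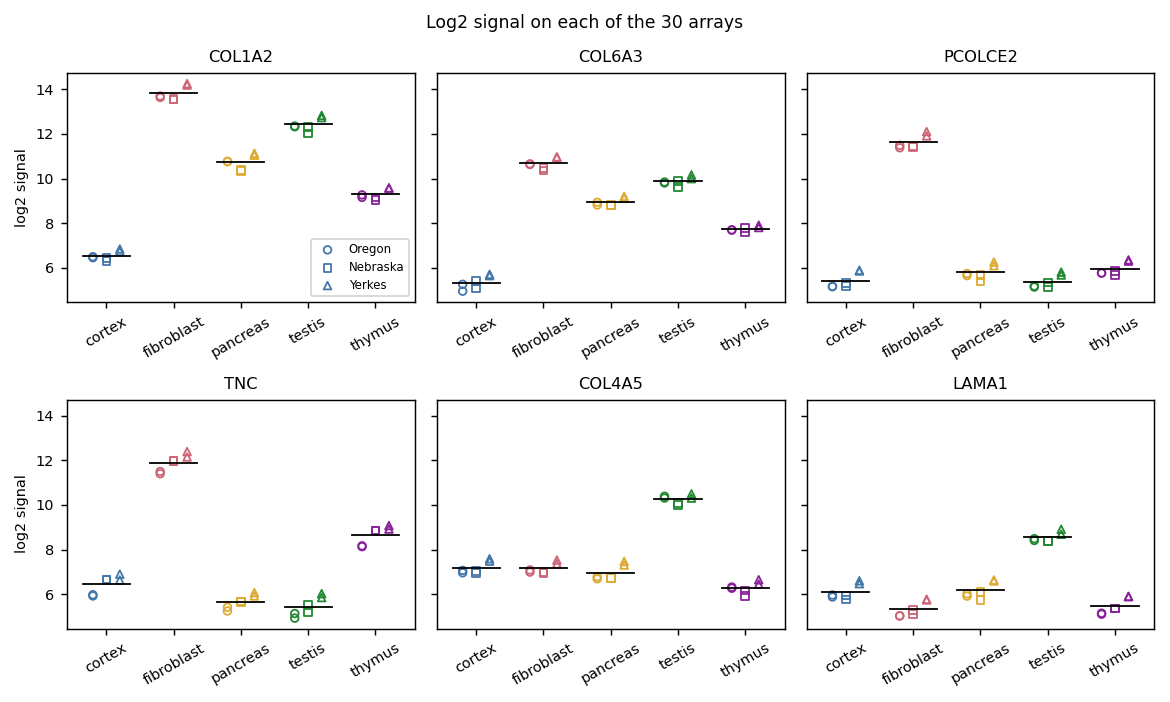
Log2 signal (y axis) on each of the 30 arrays for 6 genes by tissue (x axis), with a symbol per center and a line at the mean of 6 arrays. COL1A2 and COL6A3 descend from fibroblast through testis, pancreas and thymus to cerebral cortex, PCOLCE2 and TNC stand out in fibroblast, and COL4A5 and LAMA1 in testis.

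Of the 7 elastic fiber and fibulin genes, 3 were higher in fibroblast by at least 1 (4.63% of all genes were). FBN1, the fibrillin of adult microfibrils, gave 12.01, 12.23 and 12.67 in fibroblast, 10.54, 11.01 and 11.36 in testis and 6.42, 6.60 and 7.21 in cerebral cortex. Fibroblast led testis by 1.24 (SE 0.07), adjusted p = 4.84e-16, and cortex was the lowest by 1.45 (SE 0.07). FBN2, the fetal fibrillin, gave 9.43, 9.63 and 9.68 in fibroblast and 7.13, 7.46 and 7.81 in testis, a lead of 2.09 (SE 0.09), adjusted p = 6.16e-19. FBLN5, which tethers elastin to microfibrils, gave 10.38, 11.05 and 11.10 in fibroblast and 8.47, 8.78 and 9.06 in pancreas, a lead of 2.09 (SE 0.07), adjusted p = 3.60e-22. These fibroblast signals were above every array of the other tissues. Elastin itself, ELN, had no such lead, with means of 6.98 in pancreas, 6.49 in fibroblast and 6.35 in cerebral cortex. FBLN1 leaned to testis by 0.58 (SE 0.09).

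EFEMP1, fibulin 3, had a pattern of its own. Its signals were 9.18, 9.45 and 9.84 in fibroblast, 9.25, 9.41 and 9.61 in cerebral cortex, 8.06, 8.35 and 8.52 in pancreas, 7.20, 7.45 and 7.71 in testis and 6.20, 6.31 and 6.43 in thymus. Fibroblast and cortex overlapped and differed by 0.07 (SE 0.09), adjusted p = 0.478, whereas the other 3 tissues were separate from each other. Thymus was the lowest by 1.12 (SE 0.09).

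All 6 matrix glycoproteins and proteoglycans were higher in fibroblast (16.7% of all genes were), although BGN and VCAN only by 0.32 and 0.19. Under quantile normalization of all 30 arrays BGN was no longer highest there, with a difference of -0.0233. TNC, an adhesion-modulating protein of growing and injured tissue, gave 11.40, 11.96 and 12.39 in fibroblast and 8.13, 8.84 and 9.08 in thymus, and no more than 6.90 in the other tissues. Thymus was thus second, 3.23 (SE 0.08) lower, adjusted p = 2.21e-26. FN1, fibronectin, the main adhesive protein of fibroblast matrix, likewise had thymus second, with 11.01, 11.54 and 11.87 in fibroblast and 9.11, 9.25 and 9.47 in thymus, and a lead of 2.21 (SE 0.07), adjusted p = 2.02e-23. LUM, lumican, a fibril-spacing proteoglycan, gave 11.74, 12.07 and 12.44 in fibroblast, 10.01, 10.03 and 10.12 in pancreas, 9.08, 9.27 and 9.49 in testis, 8.03, 8.13 and 8.19 in thymus and 6.68, 7.00 and 7.27 in cerebral cortex. Its lead over pancreas was 2.01 (SE 0.08), adjusted p = 4.91e-20. DCN, decorin, its neighbour in the annotation, ran instead from fibroblast (13.09, 13.78 and 14.03) to testis (12.63, 12.70 and 13.27) and then pancreas (10.03, 10.25 and 10.40). The ranges of fibroblast and testis overlapped there, with a lead of 0.77 (SE 0.09), adjusted p = 2.87e-09. Cerebral cortex was the lowest for both, by 1.11 (SE 0.08) for LUM and 1.95 (SE 0.09) for DCN.

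All 6 crosslinking and enhancer genes were higher in fibroblast (16.7% of all genes were), 5 of them by at least 1 (4.63%). Their median difference of fibroblast from the other tissues was 3.83, against 3.36 in the glycoprotein and proteoglycan class, 1.62 in the elastic fiber class and 0.65 in the fibrillar collagens. PCOLCE2, an enhancer of procollagen cleavage, gave 11.38, 11.46 and 12.11 in fibroblast and between 5.14 and 6.36 over the 24 arrays of the remaining sources. Its lead over thymus was 5.66 (SE 0.06), adjusted p = 7.83e-35, the largest among the 64 genes, and it read 5.66, 5.65 and 5.68 at Oregon, Nebraska and Yerkes. LOX, the lysyl oxidase that crosslinks collagen and elastin, gave 10.19, 10.45 and 10.95 in fibroblast and 6.77, 6.92 and 7.79 in testis, a lead of 3.36 (SE 0.09), adjusted p = 3.28e-25. LOXL1, the paralog needed for elastic fibers, gave 10.82, 10.96 and 11.45 and 7.67, 7.89 and 8.16, a lead of 3.17 (SE 0.09), adjusted p = 8.19e-25. LOXL2 gave 9.94, 10.09 and 10.39 and 6.76, 7.24 and 7.66, a lead of 2.91 (SE 0.10), adjusted p = 2.32e-22. In these oxidases fibroblast never overlapped with another tissue. LOXL3 led by 0.96 (SE 0.06) and PCOLCE, the first enhancer, by 1.80 (SE 0.08), both over testis.

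Genes that modify, fold and trim collagen chains were listed by function beside the 64. Of 24 listed processing genes 21 were measured, and 12 were higher in fibroblast (16.7% of all genes were), 10 of them by at least 1 (4.63%), whereas 3 were higher in pancreas (21.2%), 1 in testis (9.71%) and 5 in none. P4HA2, a prolyl hydroxylase subunit, led by 3.86, with a mean of 12.19 in fibroblast and 8.33 in testis. P3H1 and P4HA1, a further pair of prolyl hydroxylases, led by 1.98 and 1.96. P4HB, the shared beta subunit, did not separate fibroblast (11.89) from pancreas (11.93). Of 14 receptors for collagen and laminin 10 were measured, and 4 were higher in fibroblast, 2 in testis, 1 each in pancreas and cerebral cortex and 2 in none, against 16.7%, 9.71%, 21.2% and 13.3% of all genes in those tissues. In 10 genes such counts are few, and nothing is read from them. ITGB1, the common integrin beta chain, led in fibroblast by 1.37, but by 2.17, 0.66 and 1.28 at Oregon, Nebraska and Yerkes, an interaction with an adjusted p of 8.08e-08 in limma. ITGB4, the hemidesmosome integrin, led in pancreas by 1.01. ITGA2, a collagen-binding integrin, led in fibroblast by 0.99.

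Markers of other cells were compared beside these calls. Of the smooth muscle and pericyte list 3 of 7 genes were measured, and MYH11, a smooth muscle myosin, had a mean of 11.42 in testis, 3.92 above pancreas, while CNN1 was highest in fibroblast and NOTCH3 in thymus. MYH11 alone, at 11.23 to 11.64 in testis, made up most of the list's log2 summed signal there, which was 11.45 to 11.87 against at most 9.67 on all other arrays. Of 7 endothelial markers none was highest in testis or fibroblast, 4 having their highest mean in pancreas (2 of them called), 2 in thymus and 1 in cerebral cortex. Their log2 summed signal spanned 10.09 to 10.84 in pancreas, 10.11 to 10.73 in thymus, 9.72 to 10.32 in testis, 9.25 to 9.97 in cerebral cortex and 8.72 to 9.46 in fibroblast, so pancreas and thymus overlapped. Of the epithelial list 5 of 6 genes were measured, and 3 had their highest mean in pancreas (2 of them called), while KRT18 led in cerebral cortex by 1.52 and KRT19 in thymus by 0.61. Its log2 summed signal was 10.57 to 11.00 in pancreas, 9.67 to 10.15 in cerebral cortex, 9.52 to 10.10 in testis, 8.96 to 9.58 in thymus and 8.38 to 9.08 in fibroblast. The part of these cells in the testis and pancreas signals of matrix genes was not tested.

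The choice of probeset mattered for some genes. Of 38 genes with more than 1 probeset, 22 had the same highest tissue in all of them and 16 did not: BGN, COL1A1, COL4A5, COL5A2, COL6A1, COL9A1, COL13A1, COL14A1, COL18A1, DCN, FBN1, FBN2, LAMA2, LAMA3, LAMA4 and LOXL2. In 3 of the 16 another probeset reached a lead of at least 1 in a tissue other than the one called. For COL5A2, a chain that regulates fibril diameter, the used probeset read 10.83 in thymus and 10.59 in fibroblast, whereas a further pair read 11.43 and 11.57 in fibroblast and 6.68 and 6.74 in thymus, leading testis by 1.87 and 3.31. For COL18A1 the used probeset was highest in testis (8.88) and the other in cerebral cortex, at 10.48, a lead of 2.74 over fibroblast. For COL13A1 the second probeset led in testis by 1.02. The calls of COL5A2 in thymus, COL18A1 in testis and COL13A1 in pancreas thus depended on which probeset was read.

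COL15A1, a basement membrane collagen counted outside the class of COL4 genes, was called in no tissue with its brighter probeset. The means of that probeset ran from 7.48 to 7.88. Its other probeset read 10.39 in testis and 7.42 in pancreas, a lead of 2.97 for testis. In COL4A6 and COL2A1 the second probeset had the same highest tissue with a larger lead, 3.29 and 1.71 in testis. For LAMB1 and NID1 in fibroblast and FBLN1 in testis, a probeset other than the one used led by at least 1. For COL4A5, in contrast, the second probeset was dim and flat, with means from 5.44 to 6.16. In COL14A1 the lead of testis was found with 1 of 4 probesets, and in LAMA3 that of thymus with 1 of 4. The remaining genes of the 16 had a second probeset that led by at most 0.54 elsewhere.

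**Figure D5:**
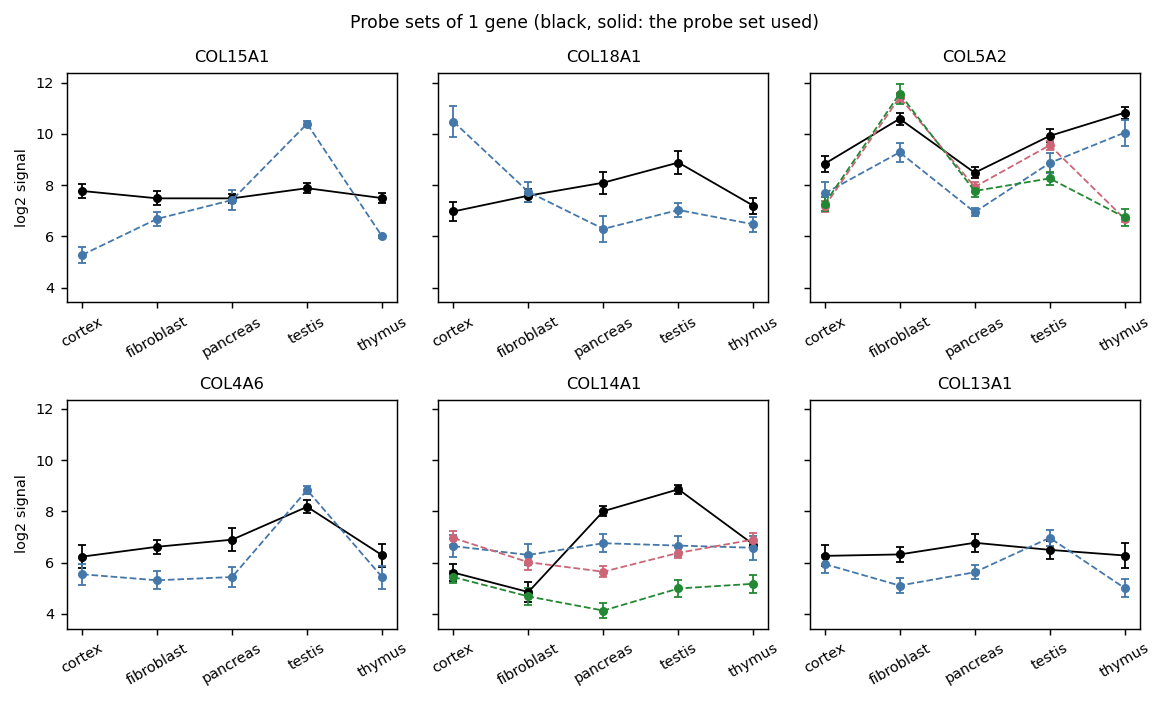
Mean log2 signal of 6 arrays with SD (y axis) by tissue (x axis) for each probeset of 6 genes, with the used probeset as a solid black line. The lines run apart for COL5A2, COL18A1 and COL15A1, and for COL4A6 both peak in testis.

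The 8 genes called in pancreas (COL10A1, COL13A1, COL19A1, COL25A1, COL27A1, COL28A1, ELN and LAMB4) all had small leads, from 0.24 to 0.50. Their mean signals in pancreas lay between 6.52 and 7.01, near the median of 6.34 over all probesets. The study advises caution with its pancreas arrays. At Oregon the median signals of these were 6.19 and 6.18, at Nebraska both 6.22 and at Yerkes both 6.81. On the arrays of the other tissues the medians reached at most 6.05, 6.08 and 6.76 at these centers. The part of this in the 8 leads was not tested. In a model without the center term limma called none of them. Between the 2 aliquots of a tissue at a center, the 64 genes differed by a median of 0.04 (testis at Oregon) to 0.20 (testis at Nebraska). The largest single difference between aliquots was 1.24, for COL18A1 in testis at Nebraska.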

How the data were processed

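RNA of 5 tissues was hybridized at 3 centers with 2 aliquots each. The deposited values were log2 signals per probeset. Per the methods of the study, the authors corrected background with the MAS 5.0 procedure, quantile normalized each center's arrays separately and summarized all arrays with RMA. No step was repeated. Of 25330 annotated probesets 361 named several genes and were left out, and 24969 named 1. Symbols of 61 of the 64 genes matched the reference by gene ID, and neighbours were read from assembly T2T-MMU8v2.0. No sequence is shown.

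The model was fitted with limma 3.58.1 in R 4.3.3 to all 52865 probesets, with tissue and center as terms. P-values were adjusted by Benjamini-Hochberg over all probesets for each of the 10 pairs of tissues. The one printed for a highest tissue is the largest of its 4 pairs. For COL5A3 and COL11A2, called in no tissue, it is that of the named pair alone. Interactions used the moderated F test. The code was tested on simulated data. The members and lists were chosen with earlier results of these data known. Genes named with values were those leading by at least 2, the widest of each class, partner chains, and those differing between centers or probesets, with others named as examples after their values were seen. Alternatives covered the normalization, the center term, dim probesets, the mean of a gene's probesets, the aliquot number as a block, centers, pancreas arrays and single arrays left out. The number of arrays limits the precision.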

Additional observations from a re-analysis of the deposited data

Results flagged for a closer look

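Of 64 groups of 6 arrays, each gene's highest tissue, 3 held an array whose gap to the nearest other exceeded Dixon's critical value. Chance flags about 1 group in 20 where arrays are alike, but these signals still hold the offset between centers (means of 6.33, 6.36 and 6.91), so that rate cannot be carried over. FBN2 in fibroblast had 1 low array, aliquot 1 at Nebraska, at 9.43 against a highest of 9.68. COL24A1 in cerebral cortex had 1 high array, aliquot 2 at Yerkes, the center with the higher mean, at 6.93 against a lowest of 6.34. COL18A1 in testis had 1 high array, aliquot 1 at Nebraska, at 9.77 against a lowest of 8.53.

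The lead of fibroblast differed between centers by the limma interaction test for 2 genes with a range of at least 1. For COL3A1 the lead over pancreas spanned 1.33 between centers, and for NID1 the lead over testis spanned 1.91. In both it was largest at Oregon and below 0 at Nebraska.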

How the results depend on the processing

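The counts of genes higher in fibroblast (30, range 26 to 31; by at least 1, 20, range 18 to 23), in testis (13, range 11 to 14; by at least 1, 6, range 5 to 8), in the order fibroblast, testis, others (22, range 16 to 25) and with an interaction (23, range 16 to 24) stayed within 1.5 times of these under all alternatives run. The smaller counts moved. In cerebral cortex the 1 gene became 0 with dim probesets left out, 2 with the mean of all probesets, 6 without the pancreas arrays, whose quality the study doubts, 3 without Nebraska, and 2 with Oregon or Nebraska alone, and leaving out single arrays gave 1 to 2. By at least 1 the count of 0 became 1 without Oregon and with Nebraska or Yerkes alone, and single arrays left out gave 0 to 1, COL24A1 passing 1 without cerebral cortex aliquot 1 of Oregon or of Yerkes, testis aliquot 1 of Oregon or testis aliquot 2 of Nebraska. The 7 genes lower in cortex became 3 with the mean of all probesets. In pancreas the 8 became 0 without the center term and 4 with dim probesets left out or with Yerkes alone. In thymus the 2 became 0 with the mean of all probesets, and 1 without the center term or with Nebraska or Yerkes alone. The cause was not tested.

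Reversed under the mean of all probesets were the leads of COL5A2 (-2.14), LAMA3 (-0.13), COL13A1 (-0.53) and COL18A1 (-0.77), and under quantile normalization of all 30 arrays that of BGN (-0.0233) and the median in pancreas (0.0626, with that of all genes moving from -0.05 to 0.05). Of the 26 calls of at least 1, 23 remained under quantile normalization and 21 under the mean of all probesets, where the total was again 26 with other genes in it. The aliquot numbers did not pair the arrays in 1 direction. Correlations of deviations ran from -0.06 to 0.02 at Oregon, -0.06 to 0.09 at Nebraska and -0.30 to 0.35 at Yerkes. Deviations of both signs, as at Yerkes, are not covered by a block on the aliquot number. With such a replicate block all 26 calls remained, 20 in fibroblast and 6 in testis.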
